A study of Homo sapiens with 6 samples.

Results

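The 3 libraries described here were the solvent controls of an RNA sequencing study of Nthy-ori 3-1 cells, chosen by their sample titles out of 6 libraries in all. Nthy-ori 3-1 is a human line that was started from normal adult thyroid follicular epithelium and immortalised with the large T antigen of the virus SV40. The cells were of the genotype labelled WT and had been kept for 27 days in dimethyl sulfoxide (DMSO), the vehicle of the compound given to the other libraries, in the same volume. No treated library enters any value below. The labels do not say whether replicates 1, 2 and 3 were separate cultures, so the spread between them may be technical. Expression was read as FPKM, the number of fragments assigned to a gene divided by transcript length and by the total of the library. A gene is called expressed where its FPKM was at least 1 in all 3 libraries, and 10705 of 16574 genes (64.6%) were. That share is the one to set beside each count of expressed genes of a list below. Values that follow a gene name are its FPKM in replicates 1, 2 and 3, in that order.

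Follicular cells of the thyroid form closed, polarised epithelial sheets around stored colloid. Thyrotropin acts on its receptor (TSHR) to raise iodide uptake through the sodium iodide symporter (SLC5A5), and the iodine is coupled to thyroglobulin (TG) with peroxide made by the DUOX enzymes. The factors PAX8, NKX2-1, FOXE1 and HHEX together are known to maintain this programme. Large T antigen, which is used to immortalise cells, binds the RB family, a brake on entry into the cell cycle, among other proteins.

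The libraries were alike in the number of genes seen, and replicate 2 stood apart in how the signal was shared. Between 14630 and 14859 genes were above 0 and between 10928 and 11170 reached an FPKM of 1. The summed FPKM was 596725 in replicate 1, 819086 in replicate 2 and 580098 in replicate 3. The 80 ribosomal protein genes measured took 21.9%, 31.8% and 20.2% of that sum, and the 100 highest genes of each library took 38.3%, 46.9% and 37.3%. Fragment counts are not in the files and the absolute depth is unknown. The most common size of low values, as FPKM times kilobases of transcript, was 0.07 to 0.08 in replicates 1 and 2 and 0.11 to 0.12 in replicate 3, as read from 13, 17 and 13 genes in those bins, and depth was not derived from it. Of all genes, 5148 were under 1 in all 3 libraries, 857 of them listed at 0 throughout, and 721 fell on both sides of 1. Of those 721, 329 were under 1 in replicate 2 alone, against 35 in replicate 1 alone and 60 in replicate 3 alone.

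The genes that define a working follicular cell were at or near 0. None of the 12 measured genes of hormone production and thyrotropin response was expressed in all 3 libraries, and 7 of the 12 stayed under 0.1 in each. Thyroglobulin, the hormone precursor, had FPKM values of 0.02, 0.05 and 0.07. The thyrotropin receptor TSHR was at 0.07, 0.07 and 0.08. SLC5A5, the iodide symporter, was listed at 0 in replicates 1 and 2 and at 0.03 in replicate 3. These 3 genes thus had a value under 0.1 in every library, and no order among them can be read at that level. The peroxide-forming oxidase DUOX2 was listed at 0 throughout, its relative DUOX1 had values of 0.14, 0 and 0.1, and the DUOX1 maturation factor DUOXA1 had 0.05, 0.02 and 0.07. Pendrin (SLC26A4), an apical anion exchanger, was at 0.45, 0.14 and 0.57, and its relative SLC26A7 at 0.06, 0.11 and 0.04. The deiodinase DIO1 and the protease gene HPN were listed at 0 in replicates 1 and 2 and stood at 0.07 and 0.22 in replicate 3. None of these 7 genes reached 1 in any library. DIO2, the deiodinase that makes active hormone from thyroxine, was the highest of the 12 in every library, at 1.06, 2.21 and 0.74. Only its value in replicate 3 lay under 1. In bulk RNA, fewer cells that express a gene and less of its RNA per cell cannot be told apart, which holds for all the low values here.

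Of the 5 follicular transcription factors, 2 were expressed. HHEX, a homeobox factor also made in liver and blood progenitors, was the highest at 6.72, 4.83 and 6.06. GLIS3, a zinc finger factor of thyroid and pancreas, followed at 4.07, 3.71 and 5.33. FOXE1, a forkhead factor of the thyroid bud, lay at the limit with 1.2, 0.98 and 1.24. PAX8, the paired box factor that activates TG, was at 0.47, 0.47 and 0.36, and NKX2-1 was listed at 0, 0.03 and 0.05. The order HHEX, GLIS3, FOXE1, PAX8, NKX2-1 was the same in all 3 libraries, replicate 2 included. Markers of the other endocrine cell of the gland, the calcitonin-making C cell, gave 0 expressed of 9, and the calcitonin gene CALCA read 0.09, 0 and 0.

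Of 19 genes for thyroid hormone receptors, carriers, deiodinases and cofactors, 12 were expressed, a share of 63.2% that is near the 64.6% of all genes. The receptor THRA had an FPKM of 14.1, 9.83 and 15.7. The second receptor gene, THRB, was at 0.34, 0.19 and 0.36, under 1 in each library and below THRA in each. SLC7A5, the light chain of a large amino acid carrier that also takes iodothyronines, was the highest of the list at 116, 31.2 and 127. The corepressor NCOR1 was at 16.8, 9.6 and 17.4. SLC7A5 stayed on top in replicate 2, though its value there was 0.257 of the mean of the others. The inactivating deiodinase DIO3 and the carrier SLCO1C1 were at or under 0.03, and the cytosolic binding protein CRYM was listed at 0 throughout.

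Genes that mark epithelium split into a few that were plain and many that were near 0. Among simple keratins, the intermediate filaments of single-layered epithelia, 4 of 5 were expressed. KRT7 was at 97.2, 102 and 113, KRT18 at 54.1, 41.4 and 55.9 and its partner KRT8 at 7.77, 5.76 and 8.29. KRT19, which is usual in the same epithelia, was at 0, 0.05 and 0.08. The simple keratins stood in the same order in all 3 libraries, replicate 2 included. Among keratins of layered epithelia 2 of 11 were expressed, KRT10 at 8.17, 11.9 and 6.55 and KRT81 at 1.93, 5.54 and 2.24, and KRT13, KRT17 and KRT23 were listed at 0 throughout. Of 19 epithelial surface and transcription factor genes only MUC1, a membrane mucin, at 1.82, 1.21 and 2.25, and EPCAM, an epithelial adhesion molecule, at 1.14, 1.21 and 1.12, were expressed. E-cadherin (CDH1), the defining adhesion molecule of epithelium, was listed at 0 in replicates 1 and 2 and at 0.25 in replicate 3. The basal epithelial factor TP63 was at 0.71, 0.54 and 0.55, and ELF3, PRSS8 and RAB25 did not exceed 0.07 in any library.

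Several genes usual in mesenchymal cells were high. Of 27 mesenchymal cytoskeleton and transcription factor genes 23 were expressed (85.2%), with a median of the mean FPKM of 26.0, beside 4.9 over all 16574 genes. Vimentin (VIM), the mesenchymal intermediate filament, was at 9207, 7737 and 8139 and was the fifth gene of the whole transcriptome by mean FPKM. The calcium-binding protein S100A4 was at 714, 600.2 and 782, and the tropomyosins TPM1 at 419.8, 644 and 418 and TPM2 at 225, 346 and 205. Vimentin was thus far above the highest keratin, KRT7, in each library. Transcription factors of mesenchyme were present, with PRRX1 at 104, 67.8 and 94.2, TWIST1 at 19.7, 24.8 and 25.7, SNAI2 at 48.3, 47.7 and 45.9 and ZEB1 at 29.3, 21.6 and 29.3. These last 3 factors were named after their values were seen. Smooth muscle actin (ACTA2), a mark of contractile cells, was low at 1.76, 0.95 and 2.11. Of 22 fibroblast and mural cell markers 15 were expressed (68.2%, near the 64.6% of all genes), with a summed FPKM of 6336, 2806 and 6597. The surface glycoprotein THY1 was at 269, 237 and 276 and the growth factor receptor PDGFRA at 273, 130.3 and 273. PDPN, DES and MYH11 were at or under 0.07, so the list was not present as a whole.

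Against the label of normal follicular epithelium, then, the defining follicular genes and E-cadherin were at or near 0, the keratins KRT7, KRT8 and KRT18 were expressed, and vimentin and both type I collagen chains were among the 100 highest genes by mean. Vimentin was so in every library, while COL1A1 and COL1A2 ranked 144 and 216 in replicate 2. The cells are therefore called Nthy-ori 3-1 cells here, after their label. Markers of cell types that a culture could carry along were mostly low. Of 14 endothelial genes 2 were expressed, SOX17 at 3.81, 3.94 and 3.34 and the VEGF receptor KDR at 1.88, 2.14 and 1.95, and VWF and CDH5 did not exceed 0.09. Of 12 immune cell genes 2 were, the lysosomal protein CD68 at 65.7, 73.6 and 58.03 and the actin-binding CORO1A at 2.69, 5.68 and 3.08, while PTPRC, the common leukocyte antigen, was at 0.01, 0.01 and 0.02. Haemoglobin HBA2 was seen in replicate 2 alone, at 0.19. Among neural, muscle, liver and melanocyte genes 3 of 15 were expressed, with the tubulin TUBB3 at 173, 171 and 193, and SOX10, TTR and DCT at or under 0.02.

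**Figure D1:**
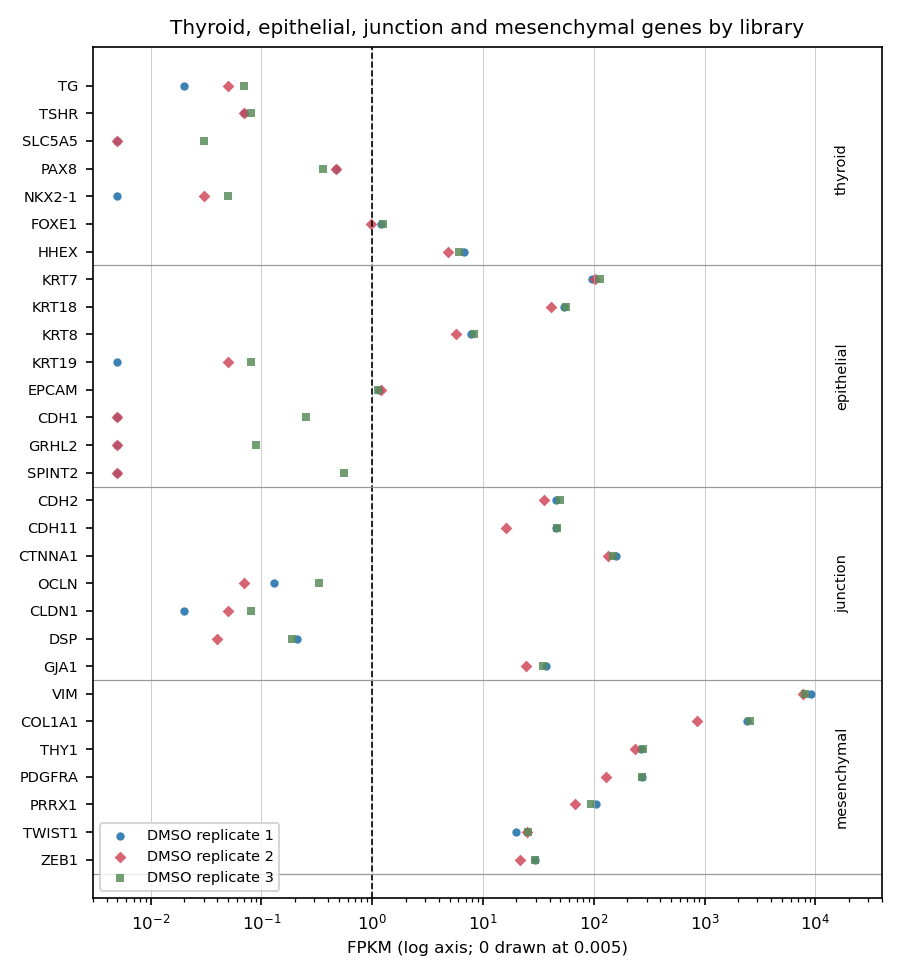
FPKM of 29 thyroid, epithelial, junction and mesenchymal genes (rows) in DMSO replicates 1, 2 and 3 (symbols) on a log axis, with values of 0 drawn at 0.005 and the FPKM of 1 as a dashed line. TG, TSHR and SLC5A5 lie under 0.1 in every library, KRT7 and KRT18 lie between 41.4 and 113, and VIM lies above all other genes shown in each library.

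Replicate 3 carried traces of some epithelial genes that were listed at 0 in replicates 1 and 2. Of the 19 epithelial genes, 17 were above 0 in replicate 3, beside 9 in replicate 1 and 11 in replicate 2, and 13 had their highest value there. SPINT2, a protease inhibitor of epithelial cells, was listed at 0 in replicates 1 and 2 and at 0.56 in replicate 3. The same held for CDH1 at 0.25 and for GRHL2, an epithelial transcription factor, at 0.09. Over all genes, 77 were at 0.1 or more in replicate 3 and listed at 0 in the others, beside 49 such genes in replicate 1 and 67 in replicate 2. Among them were the prostate proteins KLK3 at 0.55 and FOLH1 at 0.60. A list of 15 prostate epithelial markers was added after these values were seen, with 13 measured. Their summed FPKM was 108, 152 and 95.8, and STEAP1 made up most of that sum, at 92.5, 138 and 77.7. The sum therefore says little about the other members. Of the 13 measured, 10 were above 0 in replicate 1, 10 in replicate 2 and 13 in replicate 3. The highest value lay in replicate 3 for 8 of them, in replicate 2 for 3 and in replicate 1 for 1. KLK3, FOLH1 and HPN were the members listed at 0 in replicates 1 and 2. KLK3 and FOLH1 had been seen before the list was made, so both counts follow in part from that choice. No count of genes highest in replicate 3 over all genes is given beside them. TMPRSS2 read 0.02, 0.02 and 0.12. The part of these traces in other low values of replicate 3 was not tested.

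The highest genes were those of the ribosome, the cytoskeleton, glycolysis, iron and metal binding, and the annexin, S100 and galectin families. Ribosomal protein genes made up 20 of the 30 highest genes by mean FPKM and 56 of the 100 highest. All 47 large-subunit and all 33 small-subunit genes measured were expressed, with median mean FPKM of 1520 and 2043. RPS27, of the small subunit, was the highest gene by mean, at 8606, 21836 and 5522. RPL41 and RPL35 followed among ribosomal genes other than RPS2, with values of 3406, 9416 and 3012 for RPL41 and 3568, 8552 and 3162 for RPL35. Each was more than 2-fold higher in replicate 2 than in either other library. RPS2, at 5402, 7851 and 5152, was higher there by less. Many ribosomal protein genes have near-identical processed copies elsewhere in the genome, and how fragments that match several genes were treated is not given in the sources used here, so the levels of single ones such as RPL37 (67.5, 165 and 58.4) and RPL38 (125, 382 and 124) are uncertain.

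Outside the ribosomal proteins, 4 genes stood above the rest. The galectin LGALS1, a secreted sugar-binding protein, was at 8996, 13374 and 9075. GAPDH, an enzyme of glycolysis, was at 9229, 12408 and 8952. TMSB10, which binds actin monomers, was at 7831, 14902 and 7662. With vimentin they filled ranks 2 to 5 by mean, and their order differed between the libraries. The highest single gene was GAPDH in replicate 1, RPS27 in replicate 2 and LGALS1 in replicate 3. Ferritin light chain (FTL), which stores iron, was at 5416, 6860.2 and 5183, and beta-actin (ACTB) at 5564, 5062 and 5720.0. The metallothionein MT2A, a small protein that binds zinc and copper, was at 4492, 5766 and 5466. None of these 3 differed by as much as 1.5-fold between any pair of libraries.

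The next genes down were of the same kinds, joined by secreted proteins of the matrix. S100A6, a calcium-binding protein, was at 2523, 4121 and 2793, the elongation factor EEF1A1 at 3253, 3246 and 2839 and the tubulin TUBA1B at 2794, 3171 and 3046. ENO1, of glycolysis, was at 2747, 3461 and 2593, and cyclophilin A (PPIA), which folds proline bonds, at 1926, 4130.4 and 1785. The matrix protein TGFBI, which links collagen to integrins, was at 2439.9, 2231 and 2531. Interstitial collagenase (MMP1), which cuts fibrillar collagen, was at 1707, 3414 and 1635, rank 44 of all genes. Profilin (PFN1) at 1978, 2367 and 2117, annexin ANXA2 at 1804, 2809 and 1616 and ferritin heavy chain (FTH1) at 2169, 1765 and 2294 lay just below. PPIA and MMP1 were about 2-fold higher in replicate 2 than in the others, whereas FTH1 and TGFBI were lower in it than in both. The chaperone calreticulin (CALR) had 1536, 1653 and 1635 and differed least among these.

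**Figure D2:**
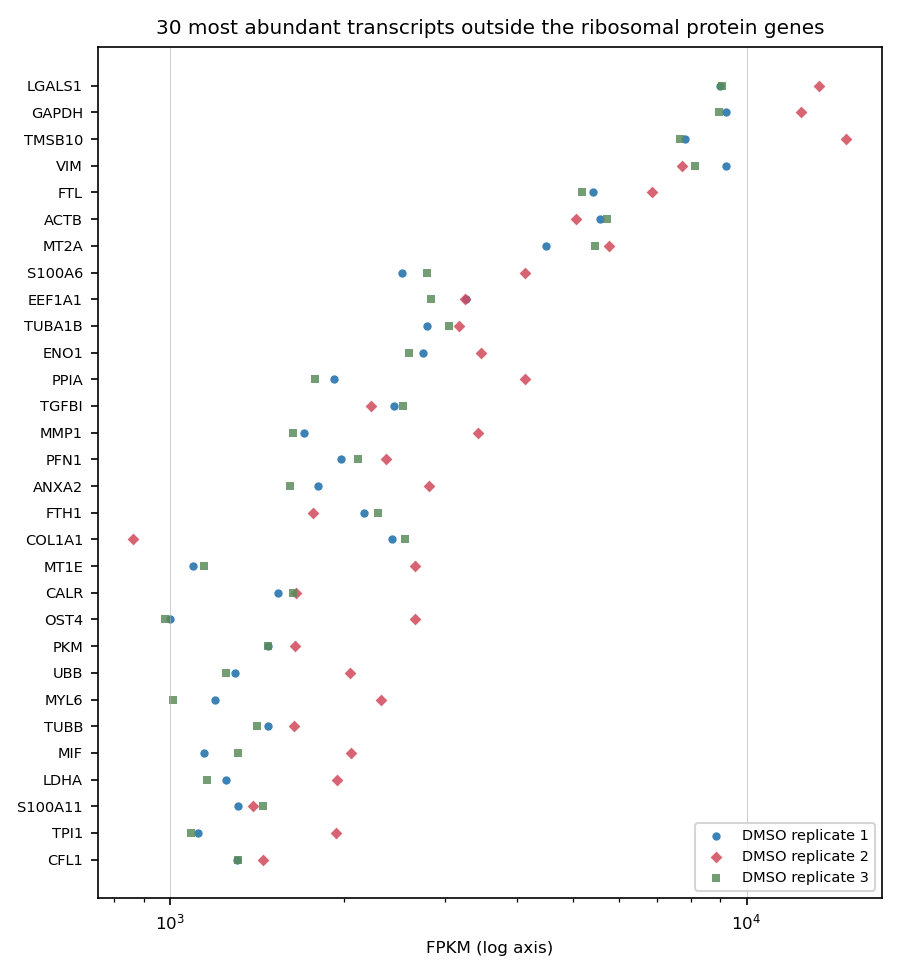
FPKM on a log axis of the 30 genes highest by mean FPKM outside the ribosomal protein genes (rows, ordered by mean) in DMSO replicates 1, 2 and 3 (symbols). Replicates 1 and 3 lie close together for most genes, TMSB10, PPIA, MMP1, MT1E and OST4 lie to the right in replicate 2, and COL1A1 lies to the left in it at 863.

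Promoter sequences were looked up in a RefSeq table (GRCh38.p14) that held 13117 of the 16574 genes, taking the first start listed for each symbol. The letters TATAAA, the core of the TATA box that places the start of transcription, were searched on the sense strand from 45 to 16 bases before the start. They stood in 10 of 82 promoters (12.2%) of the 100 highest genes outside the ribosomal proteins, in 1.46% of expressed genes, in 4.97% of genes not expressed in all 3 libraries and in 2.61% of all genes in the files that the table held. On the other strand the same window held them in 1.22% and 0.364% of the high and the expressed genes. The share thus did not rise steadily with abundance, and the 30 highest genes contributed 4 of the 10. Those 4 are shown because they join abundance to a legible start signal; each run covers 50 bases before and 10 bases after the start, 5′ to 3′ along the gene, with TATAAA in capitals.
MT2A (chr16:56608534-56608593, plus strand): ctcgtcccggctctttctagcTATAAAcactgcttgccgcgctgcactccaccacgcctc
PPIA (chr7:44796631-44796690, plus strand): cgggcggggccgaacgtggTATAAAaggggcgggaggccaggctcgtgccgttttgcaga
ANXA2 (chr15:60397977-60398036, minus strand): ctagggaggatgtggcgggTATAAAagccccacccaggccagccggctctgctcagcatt
CALR (chr19:12938559-12938618, plus strand): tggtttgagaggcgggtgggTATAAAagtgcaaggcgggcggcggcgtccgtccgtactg
The letters began 29 bases before the start in MT2A, 31 in PPIA and ANXA2 and 30 in CALR. LGALS1, ACTB, MMP1, COL1A1 and COL1A2 were not in the table.

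Ribosomal protein genes share another feature at the start, a run of pyrimidines (C and T) by which their translation is known to be regulated together. In the 64 ribosomal promoters found, 79.5% of the first 8 transcribed bases were C or T, beside 48.8% in expressed genes, and 75.0% of the starts were a C, beside 12.1%. TATAAA stood in 3.13% of them on each strand. Only these exact letters were searched here and above, so close variants, such as tatataag in the RPS27 run below, were not counted. The 4 below are high members of both subunits, with the first 8 transcribed bases in capitals and the same span as above.
RPS27 (chr1:153990712-153990771, plus strand): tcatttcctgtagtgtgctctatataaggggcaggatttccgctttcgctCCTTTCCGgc
RPL41 (chr12:56116583-56116642, plus strand): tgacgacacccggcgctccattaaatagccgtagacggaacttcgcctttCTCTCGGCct
RPL35 (chr9:124861948-124862007, minus strand): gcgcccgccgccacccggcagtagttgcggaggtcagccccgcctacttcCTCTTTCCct
RPL26 (chr17:8383184-8383243, minus strand): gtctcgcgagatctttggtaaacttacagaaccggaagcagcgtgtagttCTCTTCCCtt
All 4 begin with a C. As deposited, each of the 80 ribosomal protein genes was higher in replicate 2 than in both others. With every library brought to the same sum (TPM), 72 were higher there than in both and 6 were lower.

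The broad ranks held in replicate 2, and the fine ones did not. Of the 100 genes highest by mean, 84 were in the top 100 of every library, and replicates 1 and 3 shared 97 of their top 100 while replicate 2 shared 87 with replicate 1 and 84 with replicate 3. Of the 10 highest, 6 were in the top 10 of all 3, and of the 1000 highest, 827 were in the top 1000 of all 3. Over the expressed genes, Spearman's rho was 0.995 between replicates 1 and 3, 0.962 between 1 and 2 and 0.953 between 2 and 3. These describe agreement across genes of libraries from 1 cell line, and genes are not independent replicates. Split into 10 equal groups by rank, 81.1% of expressed genes fell in the same group in replicates 1 and 3, beside 52.5% for replicates 1 and 2 and 48.7% for replicates 2 and 3. In the same or the next group were 99.8%, 92.4% and 90.1%. Among the 30 highest genes, none of the 29 pairs of neighbours by mean kept its order in all 3 libraries, and 12 kept it in replicates 1 and 3. Outside the ribosomal proteins the counts were 2 and 14 of 29. Of 55 gene lists, 41 had the same highest member in every library.

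Adherens junctions, which tie cadherins to actin through catenins, had 13 of 20 genes expressed (65.0%, beside 64.6% of all genes), among them cadherins other than E-cadherin. Alpha-catenin (CTNNA1) was at 159.5, 134 and 150.2, beta-catenin (CTNNB1) at 126, 91.5 and 123 and vinculin (VCL), which anchors them to actin, at 60.9, 38.6 and 64.8. CDH13, a cadherin held in the membrane by a lipid anchor, was at 129.5, 54.1 and 153 and was the top member in replicate 3 only. N-cadherin (CDH2) was at 45.1, 35.7 and 49.05, and CDH11, a cadherin of mesenchyme, at 45.7, 16.02 and 46.7. P-cadherin (CDH3), VE-cadherin (CDH5) and NECTIN4 did not exceed 0.09. Alpha- and beta-catenin and N-cadherin differed by less than 1.5-fold between libraries, while CDH13 and CDH11 were more than 2-fold lower in replicate 2.

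The seal and the anchors of epithelium were seen only in part. Tight junctions, which close the space between epithelial cells, had 10 of 30 genes expressed (33.3%, beside 64.6% of all genes). The median of the mean FPKM was 0.157. Among the expressed ones were the scaffold and immunoglobulin-type members TJP1 at 14.4, 5.98 and 14.7, JAM3 at 16.8, 9.2 and 18.7 and PARD3 at 13.04, 12.9 and 12.8. AMOTL2, of the angiomotin family, was at 23.5, 24.03 and 25.4. Claudins and occludin make the seal itself. Of these, the claudin CLDN1 was at 0.02, 0.05 and 0.08 and occludin (OCLN) at 0.13, 0.07 and 0.33. The claudin CLDN9 was listed at 0 throughout, as was TJP3, and the other claudins are not described here. CLDN1 and OCLN were named after their values were seen. Desmosomes had 4 of 13 (30.8%), led by PERP at 33.6, 39.02 and 30.1 and with the cadherin DSG2 at 8.75, 5.81 and 7.86. Desmoplakin (DSP), without which no desmosome forms, was at 0.21, 0.04 and 0.19. Hemidesmosomes and laminin-332, which bind epithelium to its basement membrane, had 5 of 9 (55.6%), a share not far from that of all genes. The tetraspanin CD151 was at 259.6, 265 and 269, plectin (PLEC) at 94.3, 35.9 and 106 and the integrin ITGA6 at 31.9, 15.3 and 31.3. Its partner ITGB4 was at 0.06, 0.08 and 0.19, and of the chains of laminin-332 LAMB3 was at 9.59, 6.2 and 10.3 and LAMA3 at 0.12, 0.15 and 0.24. Gap junctions had 4 of 13 (30.8%), with connexin 43 (GJA1) at 36.8, 24.6 and 34.95 as the highest in every library. The pannexin PANX1 followed at 19.6, 21.6 and 18.8.

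**Figure D3:**
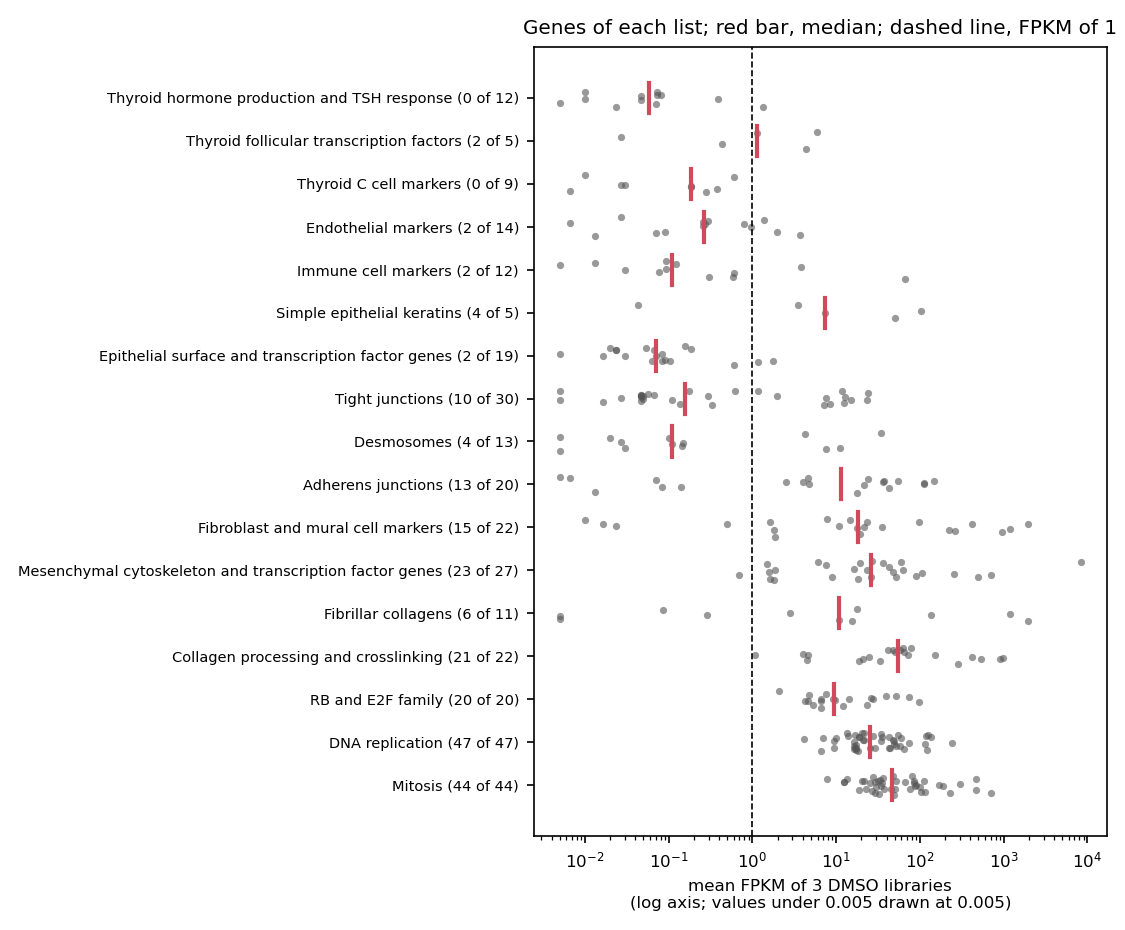
Mean FPKM over the 3 DMSO libraries (log axis) of the measured genes (points) of 17 gene lists, with the median as a red bar and the number expressed of those measured in brackets. The thyroid hormone, C cell, tight junction, desmosome and epithelial surface lists have medians under 1, and the mesenchymal, adherens junction and cell cycle lists have medians above 9.

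Of 11 fibrillar collagens 6 were expressed (54.5%, beside 64.6% of all genes), and they ran from the 100 highest genes by mean down to 0. The chains of type I collagen, the main fibre of connective tissue, were at 2427, 863 and 2558 for COL1A1 and 1509, 529 and 1527 for COL1A2. COL5A1, which sets fibre width, was at 158, 69.6 and 174, and COL5A2, its partner chain, at 21.8, 2.19 and 22.1. COL3A1, of distensible tissues such as vessel walls, was at 26.5, 0.93 and 25.8 and so was expressed in replicates 1 and 3 only. COL27A1 was even, at 10.4, 11.2 and 10.8, and the cartilage genes COL2A1 and COL11A1 were listed at 0. Of the 6, 4 were at least 2-fold lower in replicate 2 than in both others, where 3.77% of all expressed genes were and 2.93% were at least 2-fold higher. COL1A1 was the highest of the list in each library, so the top rank held while the level did not.

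The 3 chains of type VI collagen, a beaded filament around cells, were below both type I chains in replicates 1 and 3, while in replicate 2 COL6A2 was above both. COL6A2 was at 1296, 1035 and 1367, COL6A3 at 1146, 518 and 1201 and COL6A1 at 939.6, 557 and 1035. COL6A2 was the highest of the 3 in every library. The basement membrane and network collagens had 8 of 13 expressed. COL7A1, of anchoring fibrils, was at 81.7, 44.7 and 86.5, and the basement membrane chains COL4A1 and COL4A2 were at 14.2, 20.3 and 13.4 for COL4A1 and 35.7, 28.4 and 33.5 for COL4A2. COL15A1 was at 15.5, 2.43 and 15.6, the largest drop in the list in replicate 2. COL4A1, in contrast, was higher in replicate 2 than in both others. Laminins and nidogens, the sheet-forming proteins of basement membrane, had 10 of 15 expressed (66.7%, near the 64.6% of all genes). For those 10, the median log2 ratio of replicate 2 to the mean of the others was -0.88, beside -0.09 over all expressed genes. LAMB1 was at 100.1, 66.9 and 107, LAMC1 at 55.8, 27 and 61.5 and the nidogen NID1 at 36.7, 21.01 and 38.8. Among the alpha chains LAMA4 was at 14.2, 12.2 and 14.3, while LAMA3 did not exceed 0.24.

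The genes that build collagen fibres were nearly all expressed, and the adhesive glycoproteins less fully. Of 41 matrix glycoproteins 30 were expressed (73.2%, beside 64.6% of all genes). The median of their mean FPKM was 38.9, beside 4.9 over all genes. After TGFBI the highest were SPARC, a collagen-binding protein, at 1291, 862 and 1282, and fibronectin (FN1) at 1148, 560.4 and 1159. Thrombospondin THBS1 was at 361, 327 and 388 and the microfibril protein MFAP2 at 285, 218 and 287. For the 30, the median log2 ratio of replicate 2 to the mean of the others was -0.54, beside -0.09 over all expressed genes. Of 22 genes for collagen processing and crosslinking 21 were expressed (95.5%). The collagen chaperone SERPINH1 was at 993, 742 and 1009, the cyclophilin PPIB at 842, 1348 and 734, the prolyl hydroxylase subunit P4HB at 551, 494 and 567 and the lysyl oxidase LOXL2 at 318, 201 and 328. SERPINH1 led in replicates 1 and 3 and PPIB in replicate 2. Proteoglycans had 14 of 25 expressed (56.0%, beside 64.6% of all genes). Biglycan (BGN), a small proteoglycan on collagen fibres, was at 635, 159 and 682, the hyaluronan receptor CD44 at 281, 208 and 308 and versican (VCAN) at 85.2, 41.04 and 89.7. Biglycan was the highest of the list in replicates 1 and 3, and CD44 in replicate 2.

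Matrix proteases and their inhibitors had 26 of 34 expressed (76.5%, beside 64.6% of all genes). Besides MMP1, the gelatinase MMP2 was at 569.9, 306 and 590.1 and the membrane protease MMP14, which activates it, at 369, 233 and 366. The inhibitor TIMP1 was at 376, 333 and 362. MMP1 was the highest in every library, and the order of the rest differed between the libraries. MMP9 was listed at 0 in all 3, and MMP8, MMP12 and MMP13 did not exceed 0.47. Integrins, the receptors for this matrix, had 11 of 23. The shared chain ITGB1 was at 744, 628 and 688, and its fibronectin partner ITGA5 at 171, 113 and 176. The vitronectin receptor chain ITGB5 was at 141, 88.9 and 140.2. The collagen-binding chains ITGA2 and ITGA11 were at 41.98, 32.5 and 42.2 for ITGA2 and 42.2, 10.98 and 44.1 for ITGA11, so that both were near 42 in replicate 1 but about 3-fold apart in replicate 2. The epithelial chain ITGB6 was at or under 0.03, and the leukocyte chain ITGAL was listed at 0.

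Among receptor tyrosine kinases, which pass growth signals inward, 23 of 56 were expressed, 41.1% beside 64.6% of all genes. PDGFRA, the receptor for platelet-derived growth factor, led in each library. AXL, the receptor for GAS6, was at 156, 71.4 and 161, and EGFR, the epidermal growth factor receptor, at 40.2, 24.4 and 43.4. The ephrin receptors EPHB2 and EPHA2 were at 34.2, 25.7 and 37.3 for EPHB2 and 34.02, 23.3 and 37.6 for EPHA2, and FGFR1, for fibroblast growth factors, at 30.96, 16.04 and 31.97. PDGFRA and AXL kept the top ranks in replicate 2, while EGFR fell below EPHB2 there, with values in replicate 2 of 0.478, 0.450 and 0.585 of the mean of the others for PDGFRA, AXL and EGFR. ERBB4, NTRK2 and ROR2 were listed at 0. RET, the kinase of C cells and of rearranged papillary carcinoma, was at 0.02, 0 and 0. The receptors for transforming growth factor beta and bone morphogenetic proteins had 8 of 13 expressed (61.5%, near the 64.6% of all genes). For those 8, the median log2 ratio of replicate 2 to the mean of the others was -0.54, beside -0.09 over all expressed genes. TGFBR2 was at 155, 89.1 and 160.2, the coreceptor endoglin (ENG) at 52.1, 35.5 and 53.5 and TGFBR1 at 8.02, 6.46 and 7.82. Wnt and Notch receptors had 12 of 21, with NOTCH2 at 26.3, 11.3 and 29.9 and FZD6 at 20.01, 16 and 21.4, and LGR5, a stem cell receptor, at 0.12, 0.11 and 0.1. NOTCH2 led in replicates 1 and 3, and FZD8, at 17.1, 18.6 and 19.9, in replicate 2.

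Cytokine and death receptors had 29 of 54 expressed. The highest was TNFRSF12A, the receptor for TWEAK, at 308, 353 and 371, followed by the decoy receptor TNFRSF10D at 171, 248 and 163. The main receptor for tumour necrosis factor, TNFRSF1A, was at 85.8, 70.9 and 88.7, and the lymphotoxin receptor LTBR at 61.9, 52.2 and 64.8. These 4 stood in the same order in replicate 2 as in the others. Nuclear receptors, which are transcription factors switched by small molecules, had 22 of 45. The oxysterol receptor NR1H2 was at 39.8, 33.7 and 42.4, and the fatty acid receptor PPARD at 26.8, 21.1 and 28.9. AHR, the dioxin receptor, a sensor of aromatic compounds that was grouped here with the nuclear receptors, was at 34.5, 16.1 and 37.04. AHR stood above PPARD in replicates 1 and 3, and below both PPARD and NR2F6 (an orphan receptor at 21.01, 20.1 and 21.9) in replicate 2. The xenobiotic receptor NR1I2 was listed at 0, and HNF4A and NR5A1 did not exceed 0.02. G protein-coupled receptors had 20 of 48. The adhesion receptor ADGRE5 was at 84.7, 54 and 97.2, the lysophosphatidic acid receptor LPAR1 at 41.8, 36.3 and 41.9 and the protease-activated receptor F2RL1 at 32.4, 23.6 and 34.02. These 3 stood in the same order in every library, while the kinin receptor BDKRB1 was at 12.97, 29.9 and 10.97, above F2RL1 in replicate 2 only. The luteinising hormone receptor LHCGR, a relative of TSHR, was listed at 0.

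Transcripts of ligands for several of these receptors were present. Growth factors had 31 of 56 expressed. Midkine (MDK), a heparin-binding growth factor, was at 153, 344 and 122, the matricellular factor CCN2 at 124, 156 and 137 and the vascular growth factor VEGFA at 138, 147 and 131. TGFB1 was at 116, 71.1 and 123 and PDGFA, a ligand of PDGFRA, at 104, 87.04 and 90.3. MDK, CCN2 and VEGFA exchanged ranks between libraries, and MDK was more than 2-fold higher in replicate 2 than in both others. Hepatocyte growth factor (HGF) was listed at 0. Cytokines and chemokines had 16 of 34. MIF, an inflammatory cytokine of most cells, was at 1144, 2059 and 1312 and led in every library. CXCL12, a chemokine of stroma, was at 126, 90.8 and 135. CXCL8, which draws neutrophils, was at 51.1, 639.9 and 43.6, and CCL2, which draws monocytes, at 8.13, 204 and 9.84. The granulocyte factor CSF3 was at 40.96, 136 and 47.3, and IL6, named after its values were seen, at 2.11, 7.7 and 1.95. Of the 16, 9 were at least 2-fold higher in replicate 2 than in both others, where 2.93% of all expressed genes were, and none was 2-fold lower. TNF did not exceed 0.04 and CXCL10 was listed at 0.

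Of 14 cyclins 11 were expressed. All 47 replication genes, all 44 mitosis genes, all 12 kinases with their regulators and all 20 genes of the RB and E2F group were expressed in all 3 libraries, beside 64.6% of all genes. Cyclin D1 (CCND1), which opens the path from rest into the cycle, was at 283, 178 and 286. CCND3 was at 27.5, 26.97 and 30.2, while CCND2 was at 0.05, 0 and 0.03. CDK4, the kinase they drive, was at 108, 135 and 109.7 and its relative CDK6 at 7.67, 4.75 and 8.01. Cyclin E1 (CCNE1), which acts at the start of replication, was low at 2.47, 2.99 and 1.72. Cyclin A2 (CCNA2) was at 69.4, 82.97 and 68.3 and cyclin B1 (CCNB1), of mitosis, at 204, 293 and 190.4. CCND1 led the 14 cyclins in replicates 1 and 3, and CCNB1 led in replicate 2. Their mitotic kinase CDK1 was at 74.7, 143 and 73.6, close to 2-fold higher in replicate 2. CCNA1, usual in germ cells, read 1.8, 1.35 and 0.91, and CCNB3 did not exceed 0.11.

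The replication genes had a median of the mean FPKM of 25.4 and the mitosis genes one of 46.1, beside 12.6 over all expressed genes. The replication clamp PCNA was at 219.7, 295 and 214, the helicase subunit MCM7 at 112, 124 and 107 and the nucleotide enzymes RRM2 at 111, 151 and 113 and TYMS at 115, 132 and 115. PTTG1, securin, which holds back the separation of sister chromatids, was the highest mitosis gene at 536, 1091 and 499. The ubiquitin enzyme UBE2C was at 272, 834 and 278 and the activator CDC20 at 279.8, 338 and 277. MKI67, the usual proliferation antigen, was at 47.9, 36.7 and 50.2, and the decatenating enzyme TOP2A at 88.1, 76.9 and 87.3. PTTG1 led its list and PCNA led the replication genes in each library, and UBE2C was about 3-fold higher in replicate 2.

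The RB family, which large T antigen binds, was itself expressed. RB1 was at 12.6, 8.96 and 14.8, and its relatives RBL1 and RBL2 were at 10.2, 8.87 and 9.91 for RBL1 and 16.3, 10.3 and 16.7 for RBL2. E2F1, an activating factor that RB1 holds back, was at 22.3, 33.1 and 27.9, and E2F4, a partner of RBL2, at 52.4, 49.2 and 52.1. FOXM1 and MYBL2, which switch on late cycle genes, were at 101, 82.6 and 105 for FOXM1 and 63.4, 89.8 and 69.9 for MYBL2. FOXM1 led the 20 in replicates 1 and 3, MYBL2 in replicate 2. Of 18 genes of damage response and arrest 15 were expressed, and their levels spread widely. The death factor BAX was at 87.6, 149 and 99.5, the cycle inhibitor CDKN1A (p21) at 7.54, 8.24 and 7.34 and the ubiquitin ligase MDM2 at 2.59, 2.01 and 2.27. GDF15, a stress hormone, read 0.42, 0 and 0.77. SESN2, a stress sensor, was at 28.2, 6.95 and 29.99, about 4-fold lower in replicate 2. Among 6 cyclin-dependent kinase inhibitors, all expressed, the phosphatase CDKN3 led at 243, 446 and 198, with CDKN2C at 75.6, 79.2 and 75.6 and CDKN1B (p27) at 21.4, 18.8 and 20.7 below it. CDKN2A and CDKN2B were also on the list but had no match among the 16574 genes used, so nothing is said of them. Telomerase reverse transcriptase (TERT), the limiting part of the enzyme that extends chromosome ends, was at 0.31, 1.03 and 0.47 and so passed 1 in replicate 2 only. Its partner DKC1 was at 75.4, 99.3 and 69.4, and 9 of the 10 genes of the list were expressed.

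**Figure D4:**
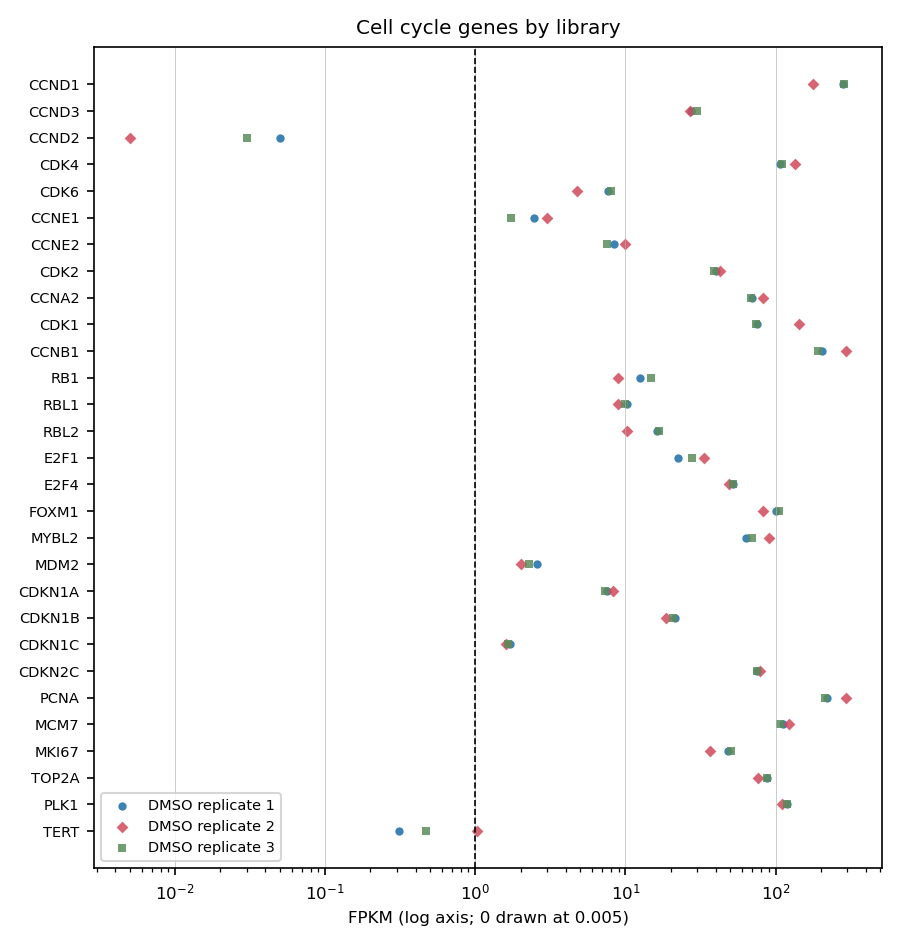
FPKM (log axis, 0 drawn at 0.005) of 29 cell cycle genes (rows) in DMSO replicates 1, 2 and 3 (symbols), with the FPKM of 1 as a dashed line. All lie above 1 in each library except CCND2, near 0, and TERT, which passes 1 in replicate 2 only at 1.03.

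The remaining lists hold the genes that most cells use. All 36 nuclear-encoded respiratory chain genes, all 24 chaperones and all 38 actin, tubulin and motor genes were expressed, as were 33 of 34 translation factors and 19 of 20 glycolysis genes. COX6B1, a subunit of cytochrome oxidase, was at 719, 1649 and 635, and ATP5ME, of the ATP synthase, at 439, 1270.0 and 256. LDHA, which makes lactate, was at 1249.9, 1949.5 and 1159.5, and hexokinase HK2 at 10.9, 11.3 and 11.6. The neuronal elongation factor EEF1A2 and the brain aldolase ALDOC were the members of their lists that missed 1 in a library, at 1.42, 0.95 and 2.43 for EEF1A2 and 0.56, 0.34 and 0.4 for ALDOC. The metallothionein MT1E was at 1095, 2662 and 1145, the glutathione transferase GSTP1 at 737, 1362 and 755 and the peroxiredoxin PRDX1 at 694, 1178 and 595. Of 16 genes of antigen presentation 9 were expressed. Beta-2-microglobulin (B2M), the common chain of class I molecules, was at 507, 746 and 523. The class II genes CD74 and HLA-DRB1 and their activator CIITA did not exceed 0.22. Of 27 surface glycoproteins 22 were expressed, led by the lysosomal tetraspanin CD63 at 724, 879 and 631 and basigin (BSG) at 463, 353 and 471, and PROM1 and VCAM1 did not exceed 0.06. Of 18 genes known as markers of papillary thyroid carcinoma 11 were expressed (61.1%, beside 64.6% of all genes). After FN1, TIMP1 and CCND1, galectin-3 (LGALS3) was at 106, 106 and 102 and HMGA2, a chromatin protein of embryonic cells, at 49.9, 66.4 and 55.4. At the low end, SERPINA1 was at 0.22, 0.08 and 0.24, and CLDN1 and KRT19 did not exceed 0.08.

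Replicate 2 stood apart by a shift in the medians of several groups of genes, while not every member of each group moved alike. Of the 16 expressed cytokines and chemokines, 13 were higher in replicate 2 than in both others and 3 were lower. At least 2-fold above both other libraries were 314 of the 10705 expressed genes (2.93%), and 404 were at least 2-fold below both (3.77%). The same counts were 1 and 1 for replicate 1 and 6 and 5 for replicate 3. This is 1 library against 2 and has no test. The split turns on the scaling. With every library brought to the same sum (TPM), 52 were higher and 1894 lower, and with every library brought to the same median of expressed genes, 477 and 249. The median log2 ratio of replicate 2 to the mean of the others over all expressed genes was -0.09 as deposited, -0.57 as TPM and 0.05 at equal medians, a shift of -0.48 from FPKM to TPM. As deposited, the large- and small-subunit ribosomal genes had medians of 0.99 and 0.97, the respiratory chain 0.96, and cytokines and chemokines 1.35. The fibrillar collagens had -1.39, the receptor tyrosine kinases -0.85 and the laminins -0.88. These 7 lists kept their sign under the 3 scalings. The replication and mitosis genes, at 0.21 and 0.21, turned to -0.26 and -0.27 as TPM.

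Counts at 2-fold followed the same groups. Of the ribosomal genes 34 of 80 were at least 2-fold higher in replicate 2 than in both others, and of the respiratory chain 14 of 36. Among the 100 highest genes, 87 were higher in replicate 2 than in both others and 10 were lower. No such count over all expressed genes is given to set beside these. The 100 were ranked by a mean that includes replicate 2, the library with the largest summed FPKM, and 56 of them were ribosomal protein genes. The count was made as deposited only, and it follows in part from that choice of genes. Of those 100, the 5 lowest in replicate 2 relative to the others were COL1A1, COL1A2, SPARC, COL6A2 and FTH1. RPS27A, RPS27, RPL24 and RPS24 were among the 5 highest. RPS27A, a ubiquitin fused to a ribosomal protein, was at 757, 2191 and 642, and RPL24 at 1875, 5403 and 1652. Over all expressed genes the extremes, named after their values were seen, were CCL2 and CXCL8 on the high side and COL5A2 on the low side, where its ratio was 0.10. The matrix protein POSTN, at 121, 21.4 and 112, and the activin chain INHBE, at 14.7, 1.77 and 15.5, were also among the 20 lowest. The protease MMP3, at 28.98, 125 and 28.3, and the prostaglandin enzyme PTGS2, at 8.54, 34.7 and 9.5, were among the 20 highest.

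Transcript length moved with the shift of replicate 2. With expressed genes split into 4 equal groups by the longest transcript in GENCODE v29, the median log2 ratio of replicate 2 to the others was 0.34 in the shortest group (217 to 2382 bases), -0.02 and -0.21 in the middle groups, and -0.43 in the longest (5347 to 34526 bases). In the shortest group 226 genes were 2-fold higher in replicate 2 and 39 lower, and in the longest 14 were higher and 212 lower. The median longest transcript was 3654 bases over the expressed genes, 1602 for small-subunit ribosomal genes, 1669 for cytokines and chemokines and 6904 for fibrillar collagens. The part of length in each gene's value in replicate 2 was not tested, so a level that differs there is given with all 3 values.

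**Figure D5:**
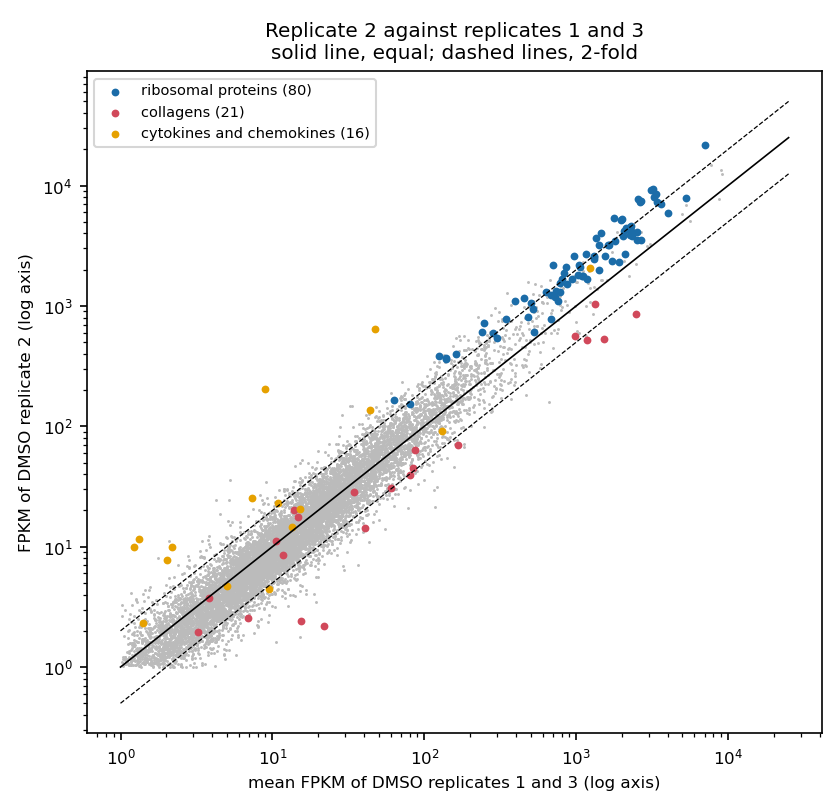
FPKM of DMSO replicate 2 against the mean of DMSO replicates 1 and 3 (log axes) for the 10705 expressed genes (grey), with 80 ribosomal protein genes, 21 collagen genes and 16 cytokine and chemokine genes coloured. The solid line marks equal values and the dashed lines 2-fold; the ribosomal genes lie above the solid line and most collagens below it.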

How the data were processed

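RNA levels were read in 3 DMSO libraries of Nthy-ori 3-1 cells. The authors deposited 1 FPKM value per Ensembl gene and library, to 2 decimals, per the file headers. Illumina libraries were made from total RNA whose integrity had been judged on a gel, per the labels' protocols. Bowtie 0.12.2, Bowtie2 and RSEM are listed in the submitters' processing notes, with the builds mm8 and mm10. Both are builds of the mouse genome, although cells and identifiers are human. Use of strand, and the sharing out of fragments with several matches, is not given in the sources used here.

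Each file had 16614 rows. The 40 rows of 20 repeated identifiers were left out, leaving 16574 genes, 16535 with a symbol. Genes were ranked by mean FPKM, called expressed at an FPKM of at least 1 in all 3 libraries, and counted as apart in 1 library at 2-fold above or below both others. With 1 group there was no comparison of groups and no test. The members and the 55 gene lists (1295 of 1376 entries measured) were chosen with earlier results of these data known. Each count of expressed genes of a list is out of its measured entries. Genes named were the 30 highest by mean, every gene of both thyroid lists, up to 6 highest and 4 lowest of each other list, and the 5 highest and 5 lowest in replicate 2 among the 100 highest; of these a selection is printed. Some genes that fall under this rule are not reported here. Other list members, such as THRB, RB1, MDM2, MKI67 and TOP2A, were picked after their values were seen, as were the genes in the plots. Transcript lengths came from GENCODE 29, found for 99.9% of expressed genes, and promoters from RefSeq (GRCh38.p14); neither is stated to be the authors' annotation. The code was checked on simulated data. Python 3.11.15, pandas 2.3.3 and numpy 2.4.6 were used. Other minimum values, folds, scalings and left-out replicates were tried. Depth is unknown, so no counting interval is given.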

Additional observations from a re-analysis of the deposited data

How the results depend on the processing

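The count of expressed genes lay between 7609 and 11443 under the 10 other settings tried, beside 10705, and stayed within 1.5 times of it. The share of the 100 highest genes found in the top 100 of all libraries, 84.0%, was 71.0% without ribosomal protein genes, 86.0% for the top 50 and 81.2% for the top 500. With 1 library left out it ran from 84.0% to 97.0%, the highest without replicate 2. Spearman's rho between replicate 2 and the mean of the others, 0.959, was 0.979 with no filter and 0.907 at an FPKM of at least 10, and Pearson's r on log2(FPKM + 1) was 0.966.

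Genes 2-fold apart in replicate 2 (718, of which 314 higher and 404 lower) depended most on scaling and fold. As TPM there were 1946, 52 higher and 1894 lower. At equal medians 477 were higher and 249 lower. At 1.5-fold there were 2729 (1110 and 1619), and at 3-fold 77 (27 and 50). With an FPKM of at least 1 in any library 611 were lower, and on FPKM + 1, 219 were. Against only 1 other library the total ran from 795 to 1108, the higher from 350 to 490 and the lower from 445 to 618. Set against both others in the same way, replicate 1 had 2 such genes (1 and 1) and replicate 3 had 11 (6 and 5). Expressed members moved by over 1.5 times in 2 of 55 lists at a minimum of 0.5 and in 15 at a minimum of 5. Without replicate 3 the thyroid hormone list did so, and without replicate 1 or 2 none did. The cause of these shifts was not tested. No paired analysis was possible because only 1 group of libraries was used.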

Other observations

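Among the 20 expressed genes lowest in replicate 2 relative to the mean of replicates 1 and 3, chosen after their values were seen, were CHAC1 and INHBE. CHAC1, which breaks down glutathione, had FPKM values of 56.04, 13.99 and 54.98, and the activin chain INHBE had 14.7, 1.77 and 15.5. With the stress sensor SESN2 and the amino acid carrier SLC7A5, all 4 were lower in replicate 2 than in both others, whereas replicates 1 and 3 lay close together for each. LRP1, a large endocytic receptor, was at 26.6, 6.35 and 32.2, and the latent growth factor binder LTBP2 at 109, 29.3 and 122.

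Several secreted proteins were among the 20 highest in replicate 2. The chemokines CXCL1 and CXCL3 were at 1.37, 9.86 and 1.08 for CXCL1 and 1.19, 11.5 and 1.44 for CXCL3, the cytokine LIF at 2.05, 9.92 and 2.32 and BMP2, a bone morphogenetic protein, at 4.34, 18.7 and 4.65. ANGPTL4, an inhibitor of lipoprotein lipase, was at 4.63, 36.02 and 5.86, and complement C3 at 1.87, 7.98 and 1.67. Each of these was more than 3-fold higher in replicate 2 than in either other library. The splicing factor gene U2AF1 stood out in another way, since its FPKM differed between all 3 libraries, at 3.84, 147 and 63.5. The gene has a near-identical copy in some genome assemblies, and its level is uncertain. The cause was not tested.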
